A study of Mus musculus with 4 samples.

Results

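The 8 genes described here, Sox5, Sox6, Acan, Matn1, Matn4, Hapln1, Cnmd and Runx2, were taken by name as genes of cartilage formation, with collagens left out, and all 8 were found among the 34866 genes listed. RNA was sequenced from otic vesicles, the epithelial sacs that become the inner ear, from mouse embryos of the C57/BL6 strain at day 11.5 of development. Wild-type embryos gave 2 libraries (WT 1 and WT 2), and embryos that the labels call Meis2 mutant or Meis2 knockout gave 2 more (KO 1 and KO 2). The sources used here do not give the allele, the exons it removes or the number of embryos in a library, so p-values measure only how far these libraries spread, which may be technical. Values are TPM, estimated read counts divided by transcript length and scaled to a fixed total per library, so levels can be compared between genes.

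The cartilage of the otic capsule arises from mesenchyme around the otic vesicle, under signals from the otic epithelium. Sox9 starts the chondrocyte programme, and Sox5 and Sox6 act with it to turn on the genes of cartilage matrix. In that matrix aggrecan, the product of Acan, is held on hyaluronan by the link protein encoded by Hapln1, and matrilins bridge matrix components. Cnmd encodes chondromodulin, a glycoprotein of cartilage that inhibits blood vessel growth, and Runx2 is a transcription factor of chondrocyte maturation and bone formation.

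The genes spanned a wide range of levels. Cnmd was the most abundant, with a mean of 82.9 TPM over the 4 libraries and rank 2136 among the 14496 genes that reached a mean of 1 TPM and were tested. Sox5 followed at 18.7 TPM, then Sox6 at 12.0 and Hapln1 at 10.2, Matn1 at 2.03, Matn4 at 1.23 and Runx2 at 1.17. Acan, at 0.235 TPM, was the 1 gene below the filter and was not tested. In this order the libraries of Sox6 and Hapln1 overlapped, as did those of Matn1 and Matn4 and those of Matn4 and Runx2. The libraries of the other neighbours lay apart. Cnmd alone made up 68.8% ± 1.20 (SD, n = 2) of the summed TPM of the 8 genes in WT and 59.8% ± 6.71 (SD, n = 2) in KO.

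**Figure D1:**
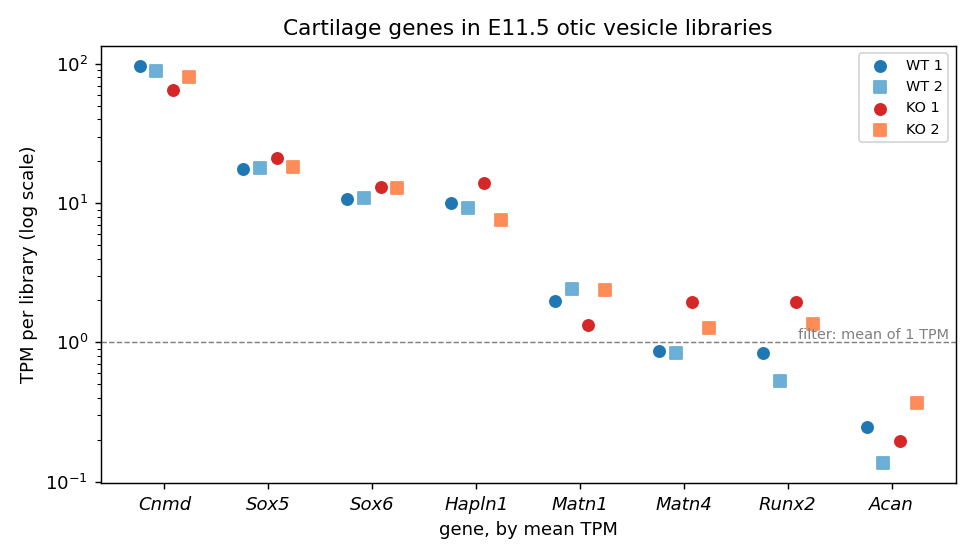
TPM of each gene in each library on a log axis, with genes ordered by mean and the filter at a mean of 1 TPM as a dashed line. Cnmd lies between 65.4 and 97.1 TPM and Acan between 0.135 and 0.364 TPM, and Matn4 and Runx2 cross 1 TPM between WT and KO.

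Set against the label of otic capsule cartilage, the markers were mixed: some genes of differentiated cartilage were at or near 0 and other cartilage matrix genes were well above 1 TPM. Besides Acan, Comp, a matrix protein of mature cartilage, was between 0.172 and 0.331 TPM, Col10a1, the collagen of hypertrophic chondrocytes, was at most 0.0900 TPM, and Snorc, a chondrocyte membrane proteoglycan, was listed at 0 in all 4 libraries. By contrast, over the 4 libraries Cnmd had a mean of 82.9 TPM, Col9a1 of 129, Col9a2 of 139, Col9a3 of 86.8, Col11a1 of 57.0, Col11a2 of 10.8, Hapln1 of 10.2, Mia of 6.16 and Cytl1 of 5.49 TPM. Matn1, Matn4 and Runx2 lay between these, at means of 2.03, 1.23 and 1.17 TPM. Of 8 cartilage collagens 7 reached a mean of 1 TPM, and of 25 other chondrogenic genes 14 did. Comp, Snorc, Mia and Cytl1 were chosen from the latter after their values were seen. Sox9 was at 128 ± 28.6 TPM in WT and 143 ± 19.5 in KO, and Col2a1, the main cartilage collagen, at 570 ± 11.5 and 673 ± 29.4 TPM (SD, n = 2 each). The otic epithelium also expresses Sox9 and Col2a1. In these bulk libraries more cells of a type and more RNA per cell cannot be told apart, nor can epithelial and mesenchymal transcripts of a gene.

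The 250 bases before the transcription start were read from RefSeq (GRCm38.p6) for all 8 genes, 14 windows in all because Sox6 has 6 listed starts and Matn4 has 2. They were searched on both strands for the MEIS core TGACAG, for the SOX cores ACAAAG and ACAATG, and for the RUNX cores TGTGGT and TGCGGT. A SOX core can overlap a RUNX core, as it did in 1 Sox6 window. The MEIS core was found in 2 of 14 windows, both of Sox6, beside 15.9% of 32851 windows of all genes. A SOX core was found in 6 windows (25.2% of all windows), at Sox5 and Sox6 alone, and a RUNX core in 5 (18.6% of all windows), at Sox6, Matn1, Hapln1 and Runx2. The Hapln1 window lies inside the gene as annotated and overlaps an exon of it. The Runx2 window lies partly inside its gene and overlaps exons of it. Sox6 windows with a core lie wholly or partly inside Sox6. Of the windows with a RUNX core, only that of Matn1 lies wholly before its gene. A match describes letters in the window and not a bound site.

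Sequences are shown for 3 windows without an annotated exon: that of Cnmd, the most abundant of the 8 and the 1 that stood lower in both KO libraries, that of Sox5, the SoxD gene with 1 listed start, and that of Matn1, the cartilage-restricted matrilin. They run 5′ to 3′ along the gene, ending 1 base before the start, at chr14:79662184-79662433 (minus strand), chr6:143947107-143947356 (minus strand) and chr4:130944135-130944384 (plus strand), with any match to the cores in capitals. The Sox5 window lies inside the gene as annotated, which ends at 144781977 on its 5′ side, and not before it.
Cnmd: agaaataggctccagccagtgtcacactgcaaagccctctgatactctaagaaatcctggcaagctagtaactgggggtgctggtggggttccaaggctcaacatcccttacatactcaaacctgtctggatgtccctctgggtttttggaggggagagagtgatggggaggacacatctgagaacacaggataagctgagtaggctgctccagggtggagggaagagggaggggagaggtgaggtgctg
Sox5: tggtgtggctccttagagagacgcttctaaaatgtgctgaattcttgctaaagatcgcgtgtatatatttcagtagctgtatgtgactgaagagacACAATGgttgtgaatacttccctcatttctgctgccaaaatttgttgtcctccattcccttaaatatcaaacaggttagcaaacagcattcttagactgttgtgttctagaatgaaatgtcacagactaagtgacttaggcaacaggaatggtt
Matn1: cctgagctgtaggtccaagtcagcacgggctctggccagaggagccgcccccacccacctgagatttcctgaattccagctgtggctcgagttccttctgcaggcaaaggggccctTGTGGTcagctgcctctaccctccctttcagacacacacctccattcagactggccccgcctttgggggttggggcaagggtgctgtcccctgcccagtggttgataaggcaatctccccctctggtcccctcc
The Cnmd window holds none of these cores and is 54.0% G and C. At Sox5 the capitals mark ACAATG from 154 to 149 bases before the start, and at Matn1 they mark TGTGGT from 134 to 129 bases before it. The Acan window also holds none and is 74.4% G and C, and in the Runx2 window a RUNX core lies on the opposite strand from 80 to 75 bases before the start.

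Meis2 itself was at 79.0 and 88.7 TPM in WT and 73.2 and 76.6 TPM in KO, which does not check the genotype labels, because one value per gene says nothing of missing exons. Each library summed to 1000000 TPM with 20829 to 21685 genes above 0. Matn4 overlaps exons of Rbpjl on the opposite strand, and Sox5 and Runx2 those of Sox5os1 and Runx2os1. Whether the counting used strand is not stated, so transcripts of such pairs cannot be told apart. Rbpjl was at most 0.0843 TPM, and Sox5os1 and Runx2os1 were not found under those symbols among the genes listed.

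In the comparison of KO with WT, Sox5, Sox6, Matn4 and Runx2 stood higher in both KO libraries than in either WT library, Cnmd stood lower in both, and Acan, Matn1 and Hapln1 overlapped. No overlap between the genotypes was thus seen for 4 of 8 genes with KO above and 1 of 8 with KO below, beside 19.2% and 10.5% of all genes tested (29.8% in either direction). Matn4 and Runx2 were under 1 TPM in WT and passed the filter through KO. Among genes tested, their lack of overlap is thus in part fixed by the filter. The test was limma on log2(TPM + 1) over all genes tested, two-sided, with Benjamini-Hochberg adjustment. It called 0 of the 7 genes tested here and 0 of 14496 genes in all (0%), and the adjusted p of each of the 7 was 1.00. It called 2 genes without KO 1 and 10 without KO 2, with 0 of these 8 among them. Without adjustment 507 genes (3.50%) had p under 0.05, and Cnmd was the 1 of these 8 among them. An exact permutation test of 2 libraries against 2 cannot give a two-sided p below 0.333.

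Of the 8 genes 6 were higher and 2 lower in KO. Among the 7 tested, 5 were higher and 2 lower, where 61.6% of all genes tested were higher. The median log2 difference, KO minus WT, was 0.12 over the 8 genes, 0.14 over the 7 tested and 0.035 over all genes tested. The 6 include Acan, which was not tested, and Matn4 and Runx2, which passed the filter through KO. The counts and the median over the 7 tested are thus in part fixed by the filter. Those over the 8 do not use it, but the 8 were chosen with earlier results of these data known. The median over the 8 was 0.24 without KO 2 and 0.094 without WT 2. All log2 differences are on the log2(TPM + 1) scale, which understates the change of low genes.

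**Figure D2:**
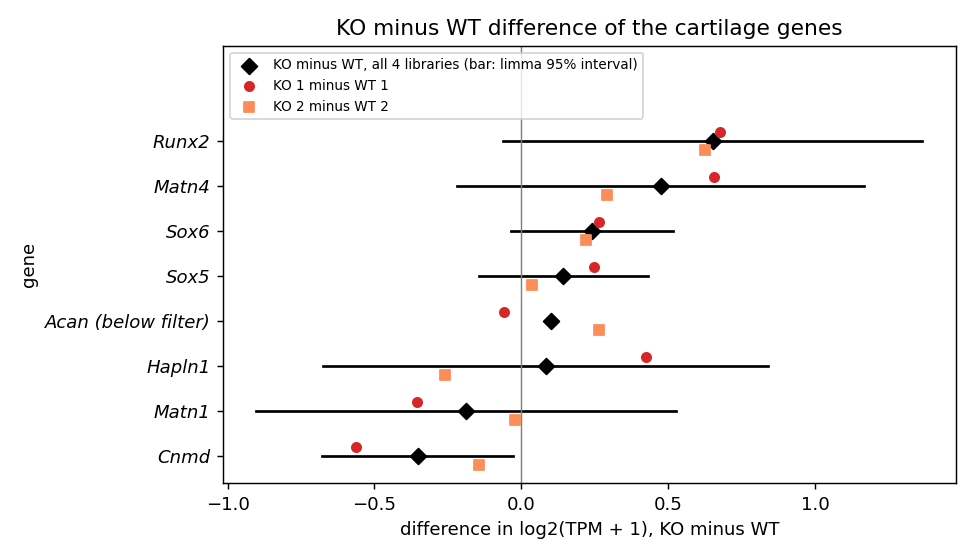
Difference in log2(TPM + 1), KO minus WT, for each gene (diamonds, with limma's 95% interval as a bar) and between the libraries of the same number (circles, KO 1 minus WT 1; squares, KO 2 minus WT 2). The interval of Cnmd, -0.68 to -0.03, is the only one of the 7 that leaves out 0, and Hapln1 and Acan have their 2 library pairs on opposite sides of 0.

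Cnmd (ENSMUSG00000022025.13, chromosome 14, 79637690 to 79662170, minus strand, GRCm38) stood at 97.1 (WT 1) and 88.9 (WT 2) TPM against 65.4 (KO 1) and 80.4 (KO 2) TPM. Both KO libraries lay below both WT libraries, and KO 1 was the lowest. The WT mean was 1.28 times the KO mean, and the log2 difference was -0.35 (SE 0.12, limma 95% interval -0.68 to -0.03). Between libraries of the same number it was -0.56 for number 1 and -0.14 for number 2. Without KO 1 the difference was -0.21, and without KO 2 it was -0.50. Tnmd, which encodes the related tenomodulin of tendon, was at most 0.235 TPM. The log2 difference of Col2a1 had the opposite sign, at 0.24 (SE 0.071). Col2a1 was 6.15 ± 0.505 times as abundant as Cnmd in WT and 9.30 ± 0.944 times in KO (SD, n = 2 each).

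The transcription factors Sox5 and Sox6 belong to the SoxD group, whose proteins have no activation domain of their own and pair with one another. Sox5 (ENSMUSG00000041540.16, chromosome 6, 143828425 to 144781977, minus strand) stood at 17.5 (WT 1) and 17.8 (WT 2) TPM against 21.0 (KO 1) and 18.3 (KO 2) TPM. Only KO 1 stood clearly off the others, since KO 2 was within 0.04 of WT 2 on the log2 scale. The log2 difference was 0.14 (SE 0.11, 95% interval -0.15 to 0.43), and it was 0.05 without KO 1 and 0.24 without KO 2.

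Sox6 (ENSMUSG00000051910.13, chromosome 7, 115470872 to 116038796, minus strand) stood at 10.8 (WT 1) and 10.97 (WT 2) TPM against 13.1 (KO 1) and 12.9 (KO 2) TPM. The 2 libraries of each genotype were nearly equal, and the genotypes did not overlap. KO was 1.20 times WT, with a log2 difference of 0.24 (SE 0.10, 95% interval -0.03 to 0.52). KO 1 minus WT 1 was 0.26 and KO 2 minus WT 2 was 0.22, and leaving out any 1 library kept the genotype difference between 0.23 and 0.25. Both Sox6 windows with a MEIS core, described above, lie at starts inside the gene.

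Sox13, the third SoxD gene, lay the other way, with 38.1 ± 3.27 TPM for WT against 32.5 ± 1.77 TPM for KO (SD, n = 2 each). Its log2 difference of -0.22 (SE 0.10) did not pass limma's threshold. The summed level of the 3 genes was 66.6 ± 3.59 TPM for WT against 65.2 ± 0.281 TPM for KO, so the sums differed by less than the spread between the WT libraries. Sox5 and Sox6 together made up 44.2% (WT 1) and 41.6% (WT 2) of that sum against 52.2% (KO 1) and 48.1% (KO 2). The share was higher in both KO libraries than in either WT library, and the ratio of Sox5 to Sox6 was 1.63 ± 0.0033 in WT and 1.51 ± 0.131 in KO (SD, n = 2 each).

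**Figure D3:**
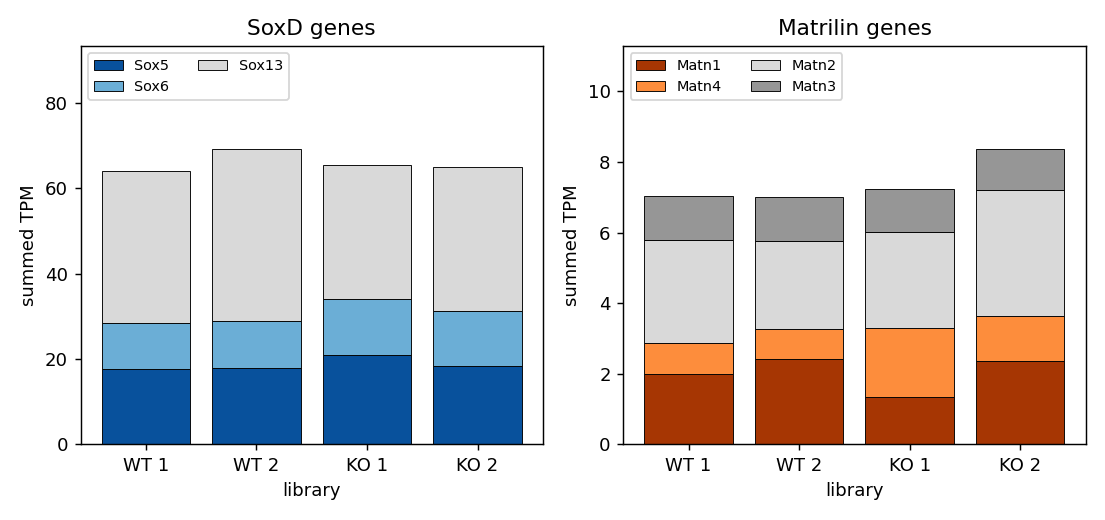
Summed TPM in each library of the 3 SoxD genes (left) and the 4 matrilin genes (right), stacked by gene on linear axes from 0. The SoxD sum stays between 64.1 and 69.2 TPM with a larger part from Sox5 and Sox6 in KO, and Matn4 makes up 12.0% to 12.4% of the matrilin sum in WT and 15.05% to 26.9% in KO.

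Runx2 (ENSMUSG00000039153.16, chromosome 17, 44495987 to 44814797, minus strand) stood at 0.838 (WT 1) and 0.531 (WT 2) TPM against 1.94 (KO 1) and 1.36 (KO 2) TPM. Both KO libraries were above both WT libraries, at 2.41 times the WT mean, in a range where TPM are low in every library. The log2 difference of 0.65 (SE 0.27, 95% interval -0.06 to 1.37) depended on the pseudocount: it was 1.17 with 0.1 TPM and 0.23 with 5 TPM. With a pseudocount of 1 TPM it was 0.68 and 0.63 between libraries of the same number. Of its relatives, Runx1 was between 0.760 and 1.23 TPM and Runx3 at most 0.222 TPM, with the genotypes overlapping in both. Cbfb, the shared partner that strengthens DNA binding by Runx proteins, was far more abundant, with 116 ± 14.6 TPM for WT against 128 ± 6.84 TPM for KO (SD, n = 2 each).

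Among genes of the osteoblast lineage, which Runx2 directs, 6 of the 9 listed were tested. In KO 4 were higher and 2 lower, where 61.6% of all genes tested were higher, and 0 passed the limma threshold. Sp7, the transcription factor that acts after Runx2 in osteoblasts, was at 1.93 and 2.37 TPM in the WT libraries and 2.86 and 4.75 TPM in the KO libraries. Alpl, the alkaline phosphatase of mineralizing cells, was at 5.43 and 7.38 TPM in WT and at 4.14 and 4.66 TPM in KO, and Spp1, which encodes osteopontin, was at 22.3 ± 1.70 and 19.5 ± 0.342 TPM (SD, n = 2 each). Sp7 thus stood on the side of Runx2, and Alpl and Spp1 on the other. Each was without overlap between the genotypes, as were 29.8% of all genes tested. Ibsp, which encodes bone sialoprotein, was listed at 0 in all 4 libraries.

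The 2 matrilin genes differed in direction. Matn4 (ENSMUSG00000016995.17, chromosome 2, 164389393 to 164405160, minus strand), whose product is a matrilin found in many tissues beside cartilage, stood at 0.872 (WT 1) and 0.843 (WT 2) TPM against 1.95 (KO 1) and 1.26 (KO 2) TPM. KO was 1.87 times WT, with a log2 difference of 0.48 (SE 0.26, 95% interval -0.22 to 1.17). The difference was 0.28 without KO 1 and 0.67 without KO 2, and it was 0.80 with a pseudocount of 0.1 TPM and 0.17 with 5 TPM. Matn1 (ENSMUSG00000040533.7, chromosome 4, 130944385 to 130955475, plus strand), the cartilage-restricted matrilin, stood at 1.99 (WT 1) and 2.42 (WT 2) TPM against 1.34 (KO 1) and 2.37 (KO 2) TPM. KO 1 alone was low. The log2 difference was -0.19 (SE 0.27, 95% interval -0.90 to 0.53), and without KO 1 it turned to 0.076. Matn2 had 2.71 ± 0.315 TPM for WT against 3.15 ± 0.592 TPM for KO, and Matn3 had 1.25 ± 0.0236 and 1.19 ± 0.0434 TPM (SD, n = 2 each).

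Acan (ENSMUSG00000030607.7, chromosome 7, 79053483 to 79115099, plus strand) stood at 0.246 (WT 1) and 0.135 (WT 2) TPM against 0.195 (KO 1) and 0.364 (KO 2) TPM. The genotypes overlapped at a low level, and TPM without a depth do not show how many reads lie behind it. Its share of the summed TPM of the lectican proteoglycans was at most 0.288%, and 97.6% to 98.3% of that sum came from Vcan. Vcan encodes versican, the lectican of embryonic mesenchyme, and had a WT level of 106 ± 1.94 and a KO level of 119 ± 5.17 TPM (SD, n = 2 each), with a log2 difference of 0.17 (SE 0.069) that did not pass limma's threshold. The others, Ncan and Bcan, are lecticans of neural tissue, with Ncan between 1.40 and 2.43 TPM and Bcan between 0.285 and 0.524 TPM.

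Hapln1 (ENSMUSG00000021613.9, chromosome 13, 89539796 to 89611652, plus strand) stood at 10.1 (WT 1) and 9.27 (WT 2) TPM against 13.9 (KO 1) and 7.59 (KO 2) TPM. The 2 KO libraries were the highest and the lowest of the 4, so the spread within KO exceeded the difference between the genotypes. The log2 difference was 0.08 (SE 0.29, 95% interval -0.67 to 0.84), and it was -0.31 without KO 1 and 0.48 without KO 2. Hapln1 made up 68.0% ± 5.598 of the summed TPM of the 4 link protein genes in WT and 77.1% ± 2.32 in KO (SD, n = 2 each). Hapln3, the next of them, had a WT level of 4.16 ± 0.677 and a KO level of 2.91 ± 0.854 TPM (SD, n = 2 each), and Hapln2 and Hapln4 were at most 0.526 TPM.

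Among the cartilage collagens, 7 of 8 were tested, with 6 higher and 1 lower in KO and a median log2 difference of 0.08. Over all genes tested 61.6% were higher, with a median of 0.035. Col2a1, Col9a2 and Col27a1 stood higher in both KO libraries than in either WT library. These are 3 of 7, beside 19.2% of all genes tested. For Col9a2, a chain of the collagen that coats type II fibrils, the values were 127 ± 9.88 and 151 ± 8.51 TPM (SD, n = 2 each), and for Col27a1, a fibrillar collagen of cartilage, 14.2 ± 0.861 and 15.1 ± 0.0549 TPM. The partner chains of Col9a2, encoded by Col9a1 and Col9a3, overlapped between the genotypes, at log2 differences of 0.17 (SE 0.11) and 0.0058 (SE 0.076). Col11a1 and Col11a2, chains of the collagen within the same fibrils, overlapped too, at log2 differences of -0.03 (SE 0.13) and 0.05 (SE 0.18). Of 25 other chondrogenic genes 14 were tested, with 12 higher and 2 lower and a median of 0.20. In that list Wwp2, the host gene of a cartilage microRNA, had a WT level of 49.8 ± 3.16 and a KO level of 59.6 ± 0.306 TPM (SD, n = 2 each). With limma, 0 genes of either list passed the threshold.

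**Figure D4:**
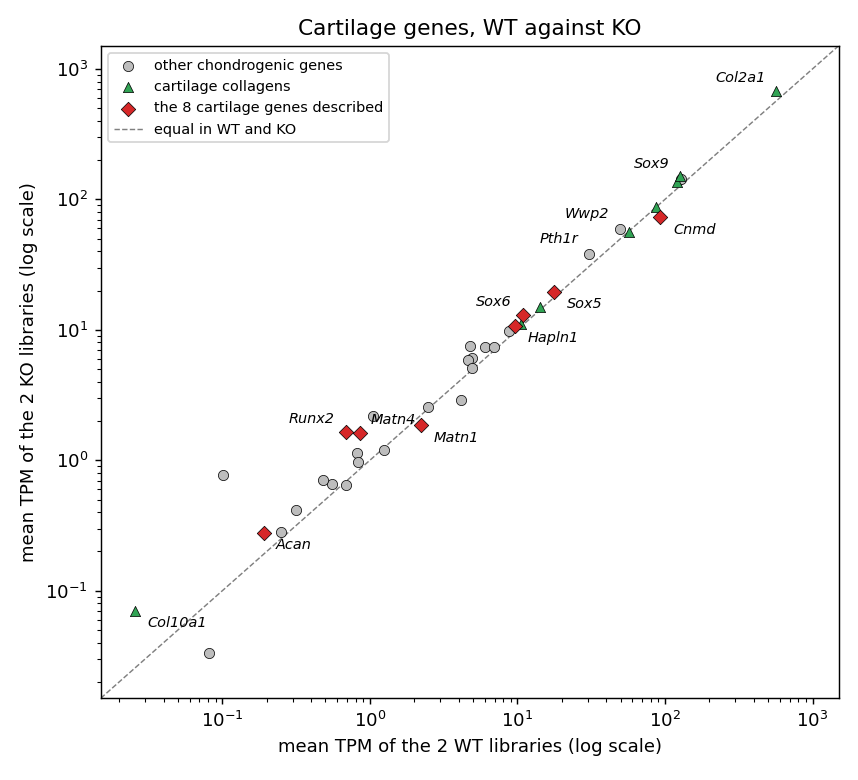
Mean TPM of the 2 KO libraries against that of the 2 WT libraries on log axes, for the 8 cartilage genes described (diamonds), 8 cartilage collagens (triangles) and other chondrogenic genes (circles), with the line of equal levels dashed; genes listed at 0 in either genotype are not drawn. Cnmd and Matn1 lie below the line, Runx2 and Matn4 above it at about 1 to 2 TPM in KO.

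Markers of the tissue around the vesicle differed between the same libraries. Of 18 periotic mesenchyme genes 17 were tested, and 16 were higher in KO, where 61.6% of all genes tested were higher. Without overlap, 4 of the 17 stood higher and 1 lower, and the 4 of 17 are near the background of 19.2% of all genes with KO above WT. Their summed level was 1210.0 (WT 1) and 1020 (WT 2) TPM against 1654 (KO 1) and 1121.5 (KO 2) TPM, so KO 1 was the highest. None of the 18 was listed at 0 in all libraries. The most abundant, the fibrous tissue collagens Col3a1 and Col1a2, had log2 differences of 0.26 (SE 0.26) and 0.59 (SE 0.30), with overlap between the genotypes in both. Of 18 otic epithelial genes 14 were lower in KO, 11 of them without overlap (10.5% of all genes tested), and their sum was 1780 to 1946 TPM in WT and 1488.5 to 1595 TPM in KO. Its most abundant genes were Oc90, which encodes the main otoconial matrix protein, and Epcam, an epithelial adhesion protein, at -0.48 (SE 0.13) and -0.15 (SE 0.069). With limma, 0 genes of either list passed the threshold. The part of either tissue in the differences above was not tested.

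Relative to its mean over the 4 libraries, the mesenchyme list had log2 values of -0.01 (WT 1), -0.30 (WT 2), 0.36 (KO 1) and -0.06 (KO 2). Runx2 was at -0.19, -0.46, 0.48 and 0.17 in the same order, with WT 2 lowest and KO 1 highest as in the mesenchyme list. Hapln1, at 0.01, -0.10, 0.44 and -0.36, had its highest value in KO 1 too, but its lowest in KO 2. The otic epithelial list was at 0.08, 0.10, -0.14 and -0.03, and Cnmd, at 0.24, 0.11, -0.32 and -0.03, shared with it the sign in every library. Sox6 was at -0.13 and -0.11 in WT and 0.13 and 0.11 in KO. Its value was highest in KO 1, as in the mesenchyme list, but lowest in WT 1. In the full order of the 4 libraries, Runx2, Hapln1, Cnmd and Sox6 each matched neither list. Neuronal genes, at -0.42, 0.27, -0.69 and 0.845, were highest in KO 2, and erythroid genes, at -0.55, 0.66, -0.14 and 0.035, were highest in WT 2. Higher in KO were 11 of 13 neuronal, 2 of 10 erythroid, 7 of 8 endothelial and 5 of 7 macrophage genes tested. So were 3 of 5 hindbrain, 3 of 6 glial and neural crest and 0 of 4 skeletal muscle genes, beside 61.6% of all genes tested. Without overlap, KO stood above WT in 1 neuronal, 1 erythroid, 4 endothelial, 2 macrophage, 1 hindbrain and 2 glial and neural crest genes (19.2% of all genes tested). KO stood below WT in 1 endothelial, 1 glial and neural crest and 2 skeletal muscle genes (10.5%).

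**Figure D5:**
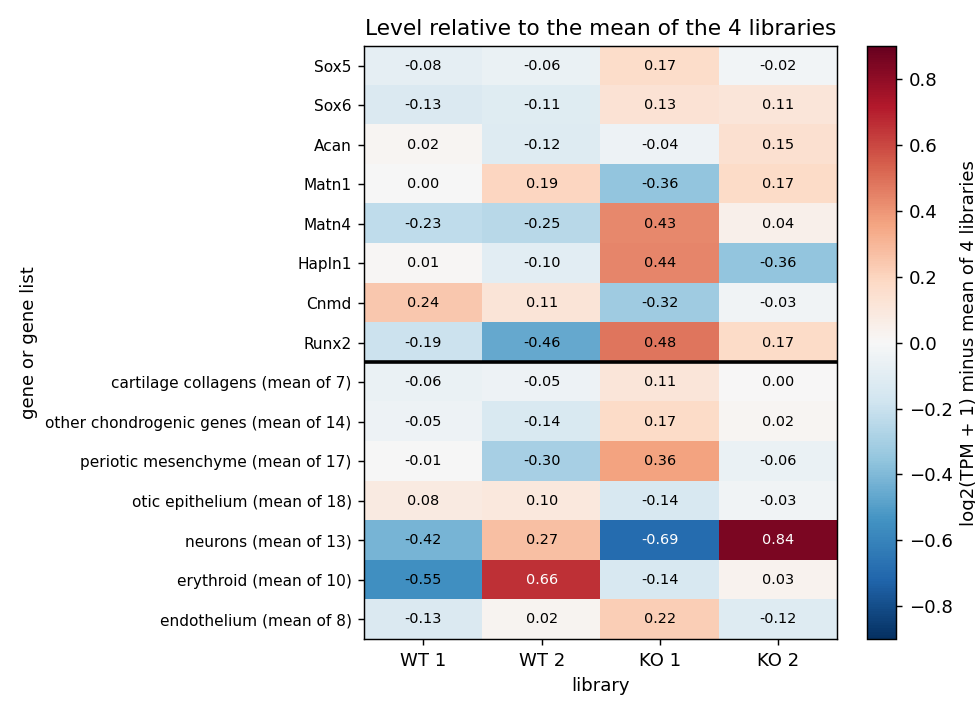
log2(TPM + 1) in each library minus the mean of the 4 libraries, for the 8 genes (above the line) and for the means of marker lists (below it), on a scale from blue (below the mean) to red (above). KO 1 holds the highest value of Sox5, Sox6, Matn4, Hapln1 and Runx2 and the lowest of Matn1 and Cnmd.

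The mean profile of the 7 tested genes had log2 values of -0.05 (WT 1), -0.10 (WT 2), 0.14 (KO 1) and 0.01 (KO 2). Among 10870 other coding genes whose mean reached 5 TPM, the 5 nearest to it by Euclidean distance over the 4 libraries were Ric1, Supt7l, Krtcap2, Rab33b and Arhgef10, at distances of 0.019 to 0.025. Within a distance of 0.1 lay 568 genes, so many genes shared this pattern over 4 libraries. Matn4 and Runx2, which passed the filter through KO, had the largest differences of the 7. The higher KO values of the mean profile, and so the genes nearest to it, are in part fixed by the filter. For Ric1, the nearest, the values were 24.4 and 23.5 TPM in WT and 28.3 and 25.7 TPM in KO.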

How the data were processed

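Otic vesicle RNA of 2 WT and 2 KO mouse samples was sequenced. The authors deposited gene-level TPM, and per the submitters' processing notes Salmon 0.9.1 and GRCm38 were used. The annotation and the summing over transcripts are not stated. Every value above 0 in WT 1, WT 2 and KO 1 became a whole millionth when multiplied by 4, and in KO 2 by 3 (tolerance 0.02), as means of 4 or 3 values would. TPM keep no depth, so no counting interval is given.

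Groups and numbers came from the sample titles. IDs were matched to GENCODE M21 (34652 of 34866). The fit was limma 3.58.1 (R 4.3.3) of log2(TPM + 1) on genotype alone, with a mean-variance trend, over genes whose mean reached 1 TPM. It was also run on simulated normal values for independent libraries. These meet its assumptions by design, so they do not check the fit on the real data. Alternatives were a pseudocount of 0.1 or of 5 TPM, a filter at 5 TPM or none, median-of-ratios scaling, quantile normalization, no trend, a replicate block and leaving out each library.

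The members and lists were chosen with earlier results of these data known. The naming rule took the 8 genes, their family relatives, Sox9, the cartilage collagens, the 2 most abundant tested genes of other lists (lists printed only as counts excepted) and the 5 genes nearest in pattern. Comp, Snorc, Mia, Cytl1, Sp7, Alpl and Ibsp were chosen after their values were seen.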

Additional observations from a re-analysis of the deposited data

How the results depend on the processing

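The direction of each of the 8 genes was the same under both other pseudocounts and both scalings. The other filters, no trend and the replicate block leave the difference of the group means unchanged, so they could not test the direction. The median over the 8 genes was 0.12, moved to 0.20 with a pseudocount of 0.1 TPM, and lay between 0.094 and 0.24 when single libraries were left out. Each time 6 of 8 genes were higher, but not always the same 6. Without KO 1, Hapln1 turned lower and Matn1 turned higher. With pseudocounts of 0.1 and 5 TPM the difference of Runx2 was 1.17 and 0.23 and that of Matn4 0.80 and 0.17. Without single libraries Hapln1 ranged from -0.31 (without KO 1) to 0.48 (without KO 2), and Matn1 from -0.45 (without KO 2) to 0.076 (without KO 1). The count of called genes was 0 with all 4 libraries under every alternative, and 0 to 10 with a library left out: 2 without KO 1 and 10 without KO 2, with 0 of the 8 genes among them; Matn4 and Runx2 were below the filter without KO 1. A genotype left with 1 library is assumed to vary like the other. Median-of-ratios scaling took the median of all genes tested from 0.035 to 0.0028.

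With replicate number as a block, limma also called 0 genes, and 1178 had an unadjusted p under 0.05 instead of 507. Across 14496 genes the difference WT 2 minus WT 1 correlated with KO 2 minus KO 1 at Pearson's r = 0.423, but the labels do not say that a number marks a shared litter or day. With at most 2.42 TPM in any library, Runx2, Matn4, Matn1 and Acan are limited by a depth that is unknown.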
